A study of Mus musculus with 12 samples.

Results

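The BCL2 family decides whether a cell opens its outer mitochondrial membrane and dies by apoptosis. Expression of 10 of its genes was followed through the basophil lineage of the mouse. They were taken by symbol from the 32227 genes of the count table, and all 10 were found. They comprise the anti-apoptotic genes Bcl2, Bcl2l1, Mcl1 and Bcl2a1b, the pore-forming effectors Bax and Bak1, and the BH3-only genes Bcl2l11, Bid, Pmaip1 and Bbc3. For a test, a gene had to pass a filter on low counts. Of the 10 genes, 9 did so, among 15083 genes that passed in all, and Bcl2a1b did not.

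The cells came from untreated, uninfected C57BL/6J WT mice, with no age stated in the labels or methods. Basophils, rare granulocytes armed by IgE, were sorted at 3 bone marrow (BM) stages and from the spleen. The 4 groups were basophil progenitors (BaPs; CD34+, CLEC12A-high), pre-basophils (CD34-, CLEC12A-high, CD9-low; the sample titles call them immature), BM mature basophils (CLEC12A-low, CD9-high) and mature basophils of the spleen. Each group had 3 bulk RNA-seq libraries, and each library was made from cells pooled from several mice, so the errors below measure the spread between pools.

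In a cell that is not dying, anti-apoptotic proteins such as BCL2, BCL-XL (from Bcl2l1), MCL1 and A1 (from the Bcl2a1 genes) bind and hold back the effectors and the BH3-only proteins. Growth factor withdrawal, DNA damage or stress raises the activity of BH3-only proteins, which free or activate BAX and BAK. These then form pores that release cytochrome c, and caspases are activated. Mature granulocytes are short-lived, and IL-3 is a survival factor for basophils.

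Bcl2 fell along the lineage, from 107 ± 37.0 counts relative to a library size scaled with TMM, the trimmed mean of log ratios (CPM, per 1e+06 counts), in BaPs (mean ± SD, n = 3 here and below) through 43.7 ± 8.34 at the pre-basophil stage to 21.7 ± 3.01 in mature basophils of the BM and 18.6 ± 2.39 in those of the spleen, and both steps within the bone marrow passed the test. Bax was higher and Bak1 lower in BM mature basophils than in pre-basophils and in the spleen than in BaPs, and the spleen libraries held about 3 reads of Bax per read of Bak1 where pre-basophils held about 1. Of 23 alternative fits, the calls between pre-basophils and BM mature basophils were lost in 6 for Bax and 10 for Bak1. Those between BaPs and spleen held in all 22. Pmaip1 was lower in the spleen than in BaPs or BM mature basophils. Mcl1 and Bbc3 were higher in spleen mature basophils than in BaPs. Across the 4 groups, 6 of the 9 tested members differed at an adjusted p under 0.05 (edgeR's quasi-likelihood F test, Benjamini-Hochberg adjustment over 15083 genes), against 57.8% of all tested genes, so that as a group the members stood close to the background.

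**Figure D1:**
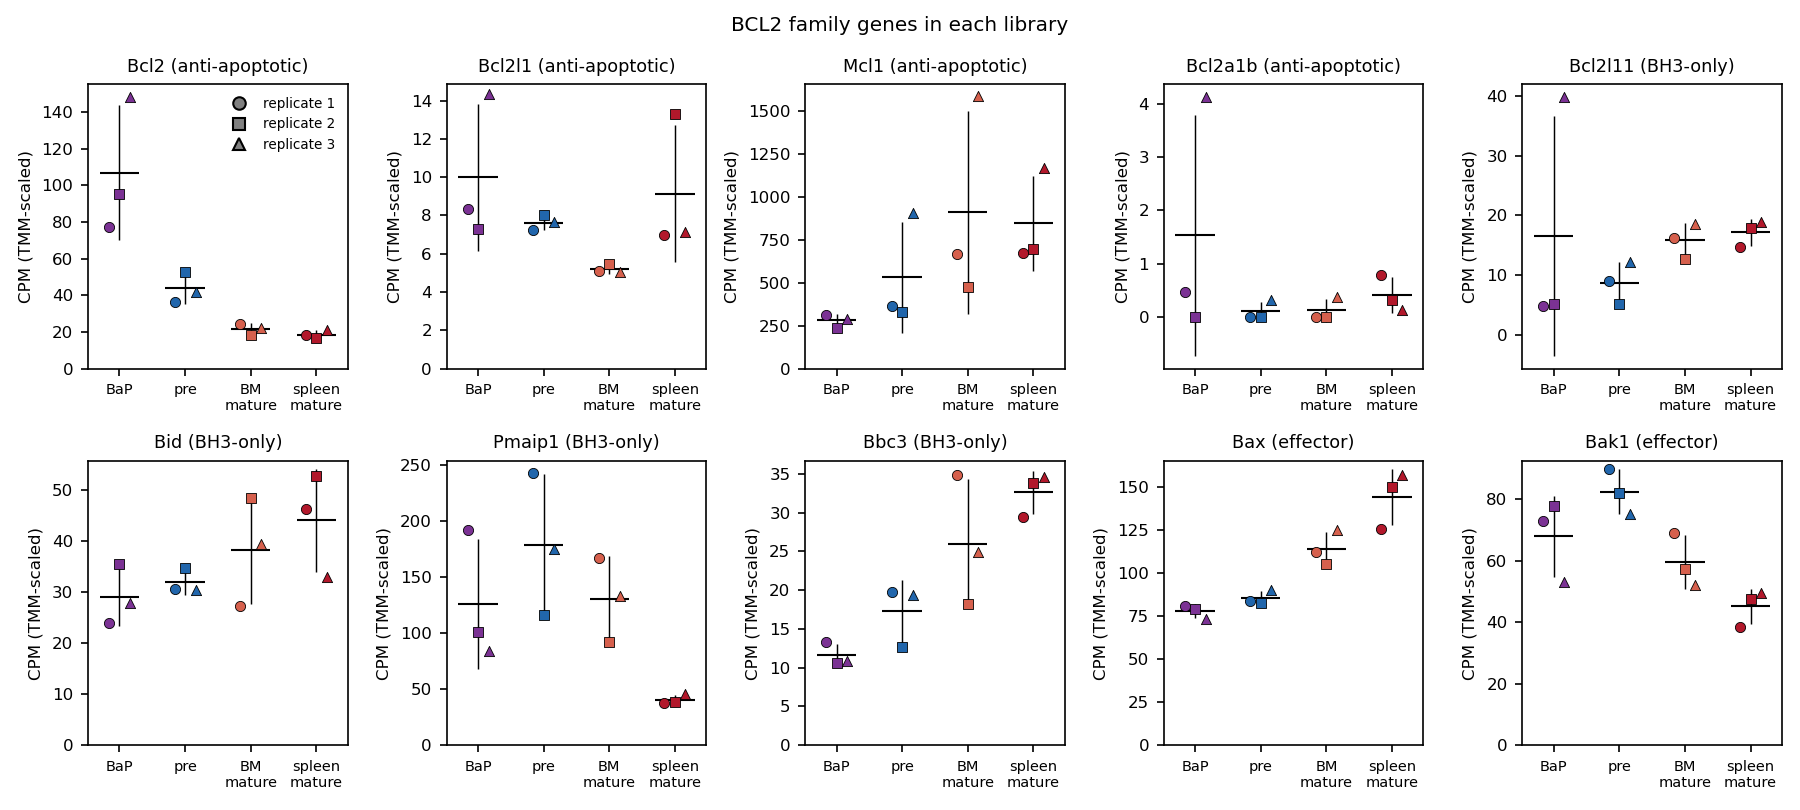
CPM (vertical axes, from or below 0) of the 10 members in each of the 12 libraries, by group (horizontal axes). Circles, squares and triangles mark replicates 1, 2 and 3, horizontal lines the mean and vertical lines ± 1 SD. Bcl2 steps down from BaPs (77.3 to 148 CPM) to spleen mature basophils (16.4 to 21.1 CPM), Bax steps up, and the triangle of BaPs stands far above the other BaP libraries for Bcl2l11 and Bcl2a1b.

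Library totals ran from 3596108 to 8151030 counts, and in every group replicate 3 had the highest total. All 9 basophil marker genes checked had counts in every library. Their sum was 59960 to 69240 CPM at the pre-basophil stage. It was lower in every mature library, at 12620 to 15470 CPM (BM) and 6914 to 7792 CPM (spleen). Prss34 made up most of it at the pre-basophil stage (mean of 44940 CPM, against 5043 CPM in BM mature basophils). Cd200r3, Itga2, Gata2, Hdc and Il4 had higher means in BM mature basophils than in pre-basophils, and of these only Itga2 passed the test. BaP replicate 3 stood apart. Its summed T and NK cell markers (7 genes) reached 551 CPM against 13.6 and 15.5 in the other BaP libraries, its erythroid markers (4 genes) reached 1489 CPM in a group whose lowest value was 8.09 CPM, and its basophil markers summed to 24350 CPM against 60740 and 65820. Differences called with BaPs are therefore also given without it. The summed level of 13 immediate-early and stress genes ran from 23420 to 34540 CPM in BaPs over 49470 to 54520 CPM at the pre-basophil stage to 100800 to 121900 CPM (BM) and 116600 to 136000 CPM (spleen) in mature basophils. Of the 13, 9 passed as lower in pre-basophils than in BM mature basophils, as did 11% of all genes, and 9 as lower in BaPs than in the spleen, as did 24.6%. Neutrophil markers (7 genes) summed to 163 to 1886 CPM in BaPs and 373 to 1889 CPM at the pre-basophil stage, against 36.9 to 68.6 CPM in BM mature and 47.9 to 52.4 CPM in spleen libraries. Monocyte and dendritic cell markers (5 genes) summed to 72.4 to 99.8 CPM at the pre-basophil stage against 189 to 232 CPM in BM mature basophils. Most of that sum was Ccr2 (means of 75.4 and 201 CPM), and Csf1r went the other way (4.34 and 1.98 CPM). These levels moved with the stages over which the members are compared, and their part in the members' differences was not tested. In bulk RNA, a lower level through fewer cells of a type and through less RNA per cell cannot be told apart.

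Bcl2 encodes the founding anti-apoptotic protein of the family. The gene lies on chromosome 1 (106538178 to 106714274, minus strand, GRCm38) and shares exonic sequence with D630008O14Rik on the opposite strand, so reads of the pair may be mixed if counting ignored the strand. Among the members, its promoter is shown because its gene had the lowest p of the members across the 4 groups, and it is dense in GC boxes. The window holds the 250 bases before the RefSeq start (GRCm38.p6, chr1:106714291-106714540, minus strand, written 5′ to 3′ on the gene's strand), with the 7 matches to GGGCGG on either strand in capitals. A match to GGGCGG is found in 32.74% of the 32851 mouse promoter windows of this length.
Bcl2 promoter: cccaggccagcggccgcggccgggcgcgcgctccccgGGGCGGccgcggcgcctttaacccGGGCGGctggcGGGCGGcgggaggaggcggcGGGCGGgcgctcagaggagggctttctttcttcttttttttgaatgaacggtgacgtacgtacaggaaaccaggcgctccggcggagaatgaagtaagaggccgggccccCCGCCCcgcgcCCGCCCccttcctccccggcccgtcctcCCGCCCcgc

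Bcl2 stood at 77.3, 95.3 and 148 CPM in replicates 1 to 3 of the BaPs, 36.5, 52.8 and 41.9 CPM in those of the pre-basophils, 24.4, 18.4 and 22.2 CPM in those of mature basophils from the BM and 18.1, 16.4 and 21.1 CPM in those from the spleen. Every BaP library lay above every pre-basophil library, and every pre-basophil library above every mature library, while the BM and spleen mature libraries overlapped. Bcl2 was higher in BaPs than in pre-basophils by 1.30 ± 0.22 on the log2 scale (log2 fold change ± SE of the edgeR fit, here and below; adjusted p = 0.0036). Pre-basophils were in turn 1.02 ± 0.23 above BM mature basophils (edgeR adjusted p = 0.00522). BM and spleen mature basophils differed by -0.22 ± 0.24 (spleen minus BM, edgeR adjusted p = 0.617). BaPs exceeded spleen mature basophils 5.79-fold (log2 2.53 ± 0.23, edgeR adjusted p = 9.47e-07). Without BaP replicate 3, the difference from pre-basophils was 0.99 (edgeR adjusted p = 0.000536) and that from spleen mature basophils 2.22 (edgeR adjusted p = 2.33e-09).

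Bcl2l1 encodes BCL-XL, another guard of the outer membrane. It was counted at low depth, with 16 to 150 reads a library. It stood at 8.32, 7.27 and 14.4 CPM in replicates 1 to 3 of the BaPs, 7.24, 7.996 and 7.64 CPM in those of the pre-basophils, 5.07, 5.48 and 5.03 CPM in those of mature basophils from the BM and 7.002, 13.3 and 7.13 CPM in those from the spleen. The BM mature libraries were the lowest group and did not overlap pre-basophils or spleen, and 1 library each in BaPs and spleen stood high. No comparison passed the test, and the nearest was spleen against BM mature basophils (log2 0.81 ± 0.32, edgeR adjusted p = 0.134), which reached an adjusted p of 0.0458 when BaP replicate 3 was left out of the edgeR fit.

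Mcl1 encodes a short-lived anti-apoptotic protein whose level follows synthesis closely, and its messenger RNA is inducible in many blood cells. The gene lies on chromosome 3 (95658788 to 95663176, plus strand, GRCm38). Its promoter is shown as that of the anti-apoptotic gene that was higher, not lower, in the spleen than in BaPs (chr3:95658471-95658720, plus strand, GRCm38.p6, RefSeq). Capitals mark the 2 matches to the ETS core CCGGAA, searched on both strands, a motif found in 12.03% of all windows.
Mcl1 promoter: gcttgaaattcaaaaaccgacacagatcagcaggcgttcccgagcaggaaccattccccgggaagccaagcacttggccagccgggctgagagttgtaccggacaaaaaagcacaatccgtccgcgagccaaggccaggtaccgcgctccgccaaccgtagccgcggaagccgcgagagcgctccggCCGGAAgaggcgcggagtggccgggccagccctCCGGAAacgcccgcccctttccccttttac

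Mcl1 stood at 313, 239 and 290 CPM in replicates 1 to 3 of the BaPs, 365, 327 and 904 CPM in those of the pre-basophils, 667, 478 and 1586 CPM in those of mature basophils from the BM and 675, 697 and 1166 CPM in those from the spleen. Replicate 3 was the highest library of the pre-basophils (2.61 times the mean of the other 2), of the BM mature basophils (2.77 times) and of the spleen (1.70 times), and in BaPs it was at 1.05 times. All BaP libraries lay below all others, and the remaining groups overlapped. BaPs were 3.01-fold below spleen mature basophils (log2 -1.59 ± 0.43, edgeR adjusted p = 0.00684; -1.61 without BaP replicate 3, edgeR adjusted p = 0.00475). Between pre-basophils and BM mature basophils the log2 difference was -0.77 ± 0.43 (edgeR adjusted p = 0.201). Within replicate numbers 1 to 3 it was -0.87, -0.55 and -0.81, and with the replicate number as a block it was -0.75 (edgeR adjusted p = 0.0297). That the numbers pair the bone marrow libraries was inferred from these same data, and no label states it. Single libraries decided the unblocked difference, which was -0.10 without BM mature replicate 3 (edgeR adjusted p = 0.88) and passed the test at -1.395 without pre-basophil replicate 3 (edgeR adjusted p = 0.0306).

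Bcl2a1b is 1 of several near-identical A1 genes, and reads of the copies cannot be assigned with certainty. It had 2, 0 and 43 reads in the BaP libraries, 0, 0 and 2 in the pre-basophil libraries, likewise 0, 0 and 2 in the BM mature ones and 5, 2 and 1 in those of the spleen. Only BaP replicate 3, the library with the T and NK cell and erythroid markers, was clearly above the level of 3 reads that a count of 0 allows (0.287 to 0.951 CPM, by library, for counting error only). Its copies Bcl2a1a and Bcl2a1d followed, with 21 and 38 reads in that library and at most 8 in any other. With the copies summed, the gene still did not pass the filter. Counts of the A1 genes were thus at or near the detection limit of most libraries. The level of A1 transcripts cannot be read from them, since the treatment of reads matching several genes is not given.

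Bax encodes an effector that waits in the cytosol and moves to the mitochondrion. Its gene lies on chromosome 7 (45461697 to 45466898, minus strand, GRCm38) and shares exonic sequence with Gm45808 on the same strand, so reads of the pair may be mixed. Bax is a known target of p53, and its promoter is shown for that reason (chr7:45466899-45467148, minus strand, GRCm38.p6, RefSeq). Capitals mark, in order, 1 match to the 10-base unit of the p53 response element, which is in 7.13% of all windows, and 1 match to the E-box CACGTG, which is in 6.02%. A full response element is a pair of such units, and the capitals mark a single one. A match describes the letters only and shows no binding.
Bax promoter: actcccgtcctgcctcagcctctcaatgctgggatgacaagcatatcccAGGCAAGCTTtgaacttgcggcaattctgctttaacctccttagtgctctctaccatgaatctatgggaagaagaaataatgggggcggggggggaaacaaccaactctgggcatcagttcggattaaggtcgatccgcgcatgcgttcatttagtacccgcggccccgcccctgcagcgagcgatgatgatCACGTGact

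Bax stood at 81.1, 79.1 and 73.5 CPM in replicates 1 to 3 of the BaPs, 83.5, 82.6 and 90.3 CPM in those of the pre-basophils, 112, 105 and 125 CPM in those of mature basophils from the BM and 126, 150 and 157 CPM in those from the spleen. The groups followed each other without overlap in that order. Spleen mature basophils exceeded BaPs 1.85-fold (log2 of BaPs minus spleen -0.89 ± 0.12, edgeR adjusted p = 2.56e-05; -0.84 without BaP replicate 3, edgeR adjusted p = 1.2e-05). Pre-basophils were below BM mature basophils by 0.42 ± 0.12 (log2 of pre-basophils minus BM mature -0.42, edgeR adjusted p = 0.0174). This call did not survive scaling by library size alone (-0.19, edgeR adjusted p = 0.218), DEGES scaling, which repeats TMM without the genes first called (-0.33, edgeR adjusted p = 0.0754), no filter on low counts (-0.41, edgeR adjusted p = 0.0557) or leaving out BM mature replicate 3 or either of pre-basophil replicates 1 and 2 (edgeR adjusted p 0.0801, 0.0705 and 0.0744). The call held without BaP replicate 3 (edgeR adjusted p = 0.00576) and with the replicate block (edgeR adjusted p = 0.0154). The neighbouring steps from BaPs to pre-basophils (-0.13 ± 0.12, edgeR adjusted p = 0.552; -0.088 without BaP replicate 3, edgeR adjusted p = 0.698) and from BM to spleen mature basophils (0.34 ± 0.12, edgeR adjusted p = 0.0895) did not pass. The step from BM to spleen reached an adjusted p of 0.0336 when BaP replicate 3 was left out of the edgeR fit.

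Bak1 encodes the effector that sits in the outer mitochondrial membrane. It stood at 72.8, 77.9 and 52.99 CPM in replicates 1 to 3 of the BaPs, 89.9, 82.1 and 75.3 CPM in those of the pre-basophils, 69.1, 57.3 and 52.0 CPM in those of mature basophils from the BM and 38.5, 47.4 and 49.4 CPM in those from the spleen. All pre-basophil libraries lay above all mature libraries, and all BaP libraries above those of the spleen. BaPs were 1.497-fold above spleen mature basophils (log2 0.58 ± 0.16, edgeR adjusted p = 0.00791; 0.75 without BaP replicate 3, edgeR adjusted p = 0.000141). Pre-basophils were 1.39-fold above BM mature basophils (log2 0.47 ± 0.16, edgeR adjusted p = 0.0446), a call close to the threshold that was lost with median-ratio scaling (edgeR adjusted p = 0.0651), with upper-quartile scaling (0.42, edgeR adjusted p = 0.0635), with DESeq2 (0.45, adjusted p = 0.0639) and without any 1 of pre-basophil replicates 1 to 3, BM mature replicates 2 and 3 or spleen mature replicates 2 and 3 (edgeR adjusted p 0.0528 to 0.169). The call held without BaP replicate 3 (edgeR adjusted p = 0.00582) and with the replicate block (edgeR adjusted p = 0.0344). Spleen against BM mature basophils gave -0.39 ± 0.16 (edgeR adjusted p = 0.159), and the edgeR adjusted p was 0.0412 without BaP replicate 3. Bak1 shares exonic sequence with Ggnbp1 on the opposite strand.

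The effectors went opposite ways, and the ratio of their counts within a library is free of any scaling. Reads of Bax per read of Bak1 were 1.11, 1.01 and 1.39 in the BaP libraries, 0.929, 1.01 and 1.20 in the pre-basophil libraries, 1.62, 1.83 and 2.401 in those of BM mature basophils and 3.26, 3.16 and 3.18 in those of the spleen. The ratio thus separated every immature from every mature library, and BM from spleen mature basophils. The pair was chosen after its values were seen, so no test is given, and the ratio does not say which transcript is more abundant, since counts also follow transcript length.

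**Figure D2:**
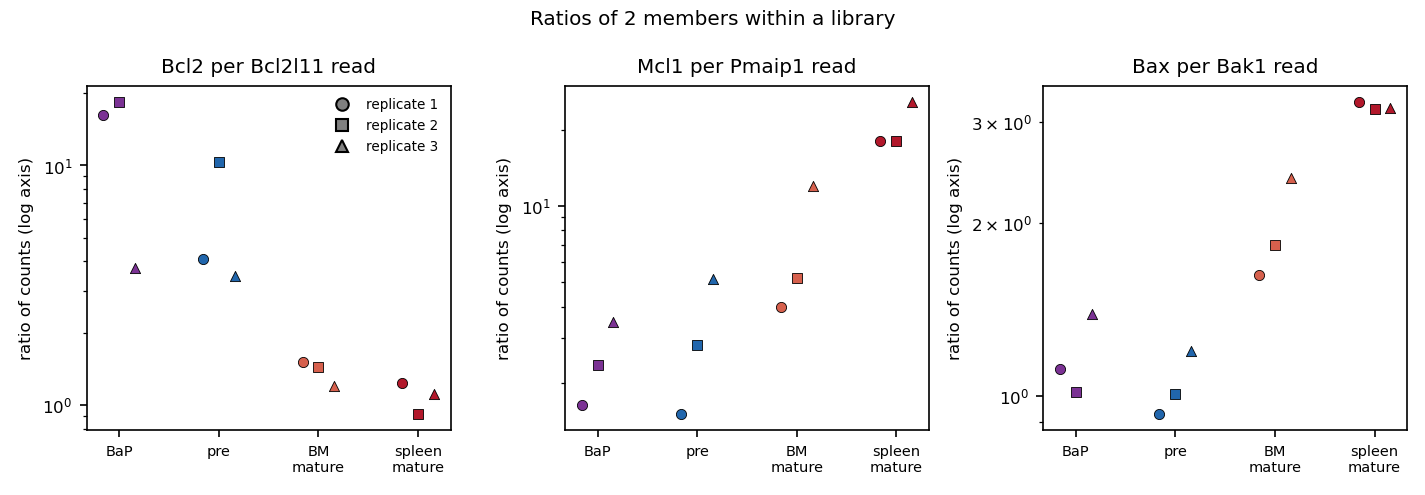
Ratio of the read counts of 2 members within each library (vertical log axes), by group, with replicates 1, 2 and 3 as circles, squares and triangles. Reads of Bax per Bak1 lie between 0.929 and 1.39 in BaPs and pre-basophils and between 3.16 and 3.26 in the spleen. Bcl2 per Bcl2l11 falls below 1.6 in all mature libraries, and Mcl1 per Pmaip1 is 18 or more in the spleen.

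Among the BH3-only genes, Bcl2l11 encodes BIM, which binds all anti-apoptotic members and is known to act in the death of blood cells deprived of growth factors. Bbc3 encodes PUMA, a p53 target that also answers to growth factor loss. FOXO factors are known to act on both genes, and 1 promoter window of each held a match to the FOXO motif GTAAACA, present in 3.17% of all windows. Both genes have more than 1 window, and their other windows held no match. A stretch of 60 bases around each match, in capitals, is shown for this reason (GRCm38.p6, RefSeq, both on the plus strand: Bcl2l11 at chr2:128125788-128125847 and Bbc3 at chr7:16310067-16310126). In Bbc3 the motif is on the other strand.
Bcl2l11 promoter: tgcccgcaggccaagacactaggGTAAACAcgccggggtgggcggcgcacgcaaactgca
Bbc3 promoter: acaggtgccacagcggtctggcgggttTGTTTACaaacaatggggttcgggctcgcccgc

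Bcl2l11 stood at 4.76, 5.16 and 39.8 CPM in replicates 1 to 3 of the BaPs, 8.91, 5.09 and 12.1 CPM in those of the pre-basophils, 16.2, 12.7 and 18.5 CPM in those of mature basophils from the BM and 14.6, 17.9 and 18.9 CPM in those from the spleen. BaP replicate 3 held 8.02 times the mean of the other BaP libraries, and the result turned on it. With it, no comparison passed the test, and the log2 difference of BaPs and spleen was 0.06 ± 0.57 (edgeR adjusted p = 0.943). Without it, BaPs were below spleen mature basophils by a log2 difference of -1.78 (edgeR adjusted p = 7.94e-05) and pre-basophils below BM mature basophils by -0.82 (edgeR adjusted p = 0.0152). The part of the T and NK cell and erythroid transcripts of that library in its Bcl2l11 count was not tested. Reads of Bcl2 per read of Bcl2l11 were 16.3, 18.5 and 3.74 in the BaP libraries, 4.09, 10.4 and 3.46 in the pre-basophil libraries, 1.51, 1.45 and 1.20 in those of BM mature basophils and 1.24, 0.917 and 1.12 in those of the spleen, again a ratio chosen after its values were seen.

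Bbc3 stood at 13.3, 10.6 and 10.8 CPM in replicates 1 to 3 of the BaPs, 19.8, 12.6 and 19.4 CPM in those of the pre-basophils, 34.9, 18.2 and 25.0 CPM in those of mature basophils from the BM and 29.4, 33.8 and 34.6 CPM in those from the spleen. The spleen libraries lay above all BaP and pre-basophil libraries, and neighbouring stages overlapped. BaPs were 2.83-fold below spleen mature basophils (log2 -1.501 ± 0.23, edgeR adjusted p = 8.11e-05; -1.44 without BaP replicate 3, edgeR adjusted p = 7.35e-05). Pre-basophils against BM mature basophils gave -0.58 ± 0.23 (edgeR adjusted p = 0.0755). Within replicate numbers the differences were -0.81, -0.52 and -0.36, and with the replicate number as a block the value was -0.57 (edgeR adjusted p = 0.048). The difference also passed without BaP replicate 3 (-0.56, edgeR adjusted p = 0.0472) and without BM mature replicate 2 (-0.77, edgeR adjusted p = 0.0265). Upper-quartile scaling and no filter gave edgeR adjusted p 0.0494 and 0.0423. In all, it passed in 6 of 23 alternatives.

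Pmaip1 encodes NOXA, a BH3-only protein that binds MCL1 and A1 and is known as a p53 target. It stood at 192, 101.4 and 83.7 CPM in replicates 1 to 3 of the BaPs, 244, 117 and 175 CPM in those of the pre-basophils, 168, 91.7 and 133 CPM in those of mature basophils from the BM and 37.4, 38.7 and 45.2 CPM in those from the spleen. The spleen libraries lay below every bone marrow library, while the 3 bone marrow groups overlapped. Spleen mature basophils were 3.22-fold below BM mature basophils (log2 -1.69 ± 0.32, edgeR adjusted p = 0.00927). The call narrowly missed the threshold without BM mature replicate 1 (-1.496, edgeR adjusted p = 0.0504). BaPs were 3.09-fold above spleen mature basophils (log2 1.63 ± 0.32, edgeR adjusted p = 0.000687; 1.87 without BaP replicate 3, edgeR adjusted p = 1.48e-05). Reads of Mcl1 per read of Pmaip1 were 1.63, 2.35 and 3.47 in the BaP libraries, 1.499, 2.81 and 5.15 in the pre-basophil libraries, 3.98, 5.21 and 11.9 in those of BM mature basophils and 18.1, 18 and 25.8 in those of the spleen, so the spleen stood apart from all bone marrow libraries in this ratio, which was also chosen after its values were seen. B cell markers (6 genes) summed to 180 to 323 CPM in the spleen libraries and 34.2 to 49.96 CPM in BM mature ones, and their part in the Pmaip1 difference was not tested.

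Bid encodes a BH3-only protein that caspase-8 cleaves, which links death receptors to the mitochondrion. It stood at 24.02, 35.4 and 27.9 CPM in replicates 1 to 3 of the BaPs, 30.6, 34.7 and 30.4 CPM in those of the pre-basophils, 27.3, 48.4 and 39.3 CPM in those of mature basophils from the BM and 46.3, 52.9 and 33.0 CPM in those from the spleen. All groups overlapped with their neighbours, and BaPs overlapped with the spleen. BaPs were below spleen mature basophils by 0.60 ± 0.21 (log2 of BaPs minus spleen -0.60, edgeR adjusted p = 0.029; -0.55 without BaP replicate 3, edgeR adjusted p = 0.0402). The call was lost with library size alone (-0.30, edgeR adjusted p = 0.304), with DEGES scaling (-0.47, edgeR adjusted p = 0.0782), with only the libraries compared in the fit (-0.57, edgeR adjusted p = 0.0568), without BaP replicate 1 (edgeR adjusted p = 0.106) and without spleen mature replicate 1 or 2 (edgeR adjusted p 0.0726 and 0.122). Bid and Bcl2l13 overlap on opposite strands.

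Counted by comparison, 7 of the 9 tested members differed between BaPs and spleen mature basophils, against 54.5% of all tested genes. Bcl2, Pmaip1 and Bak1 (3 of 9) were higher in BaPs, as were 29.8% of all genes, and Mcl1, Bid, Bbc3 and Bax (4 of 9) were lower, as were 24.6%. Without BaP replicate 3 the count was 8, by Bcl2l11, against 61.6% of all genes. Pre-basophils and BM mature basophils were separated by 3 members, against 27.3% of all genes. Bcl2 and Bak1 were higher (16.3% of all genes were) and Bax lower (11%). With the replicate block the count was 5, by Mcl1 and Bbc3. Without BaP replicate 3 it was also 5, by Bcl2l11 and Bbc3, against 35.7% of all genes. Bcl2 was the only member that differed between BaPs and pre-basophils, where 7.08% of all genes differed, 2.79% higher and 4.29% lower in BaPs, and the count was 1 without BaP replicate 3 as well. Pmaip1 was the only one between spleen and BM mature basophils, where 7.83% differed and 4.67% were lower in the spleen. Without BaP replicate 3 the count there was 4, against 18% of all genes. The members' median log2 difference was 0.06 in BaPs against spleen, -0.27 in pre-basophils against BM mature, -0.13 in BaPs against pre-basophils and 0.12 in spleen against BM mature basophils. Over all tested genes the medians were 0.03, -0.004, 0.02 and 0.005. The comparisons share libraries (BM mature in 2 of them, and likewise pre-basophils, BaPs and spleen), so their results are not independent.

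**Figure D3:**
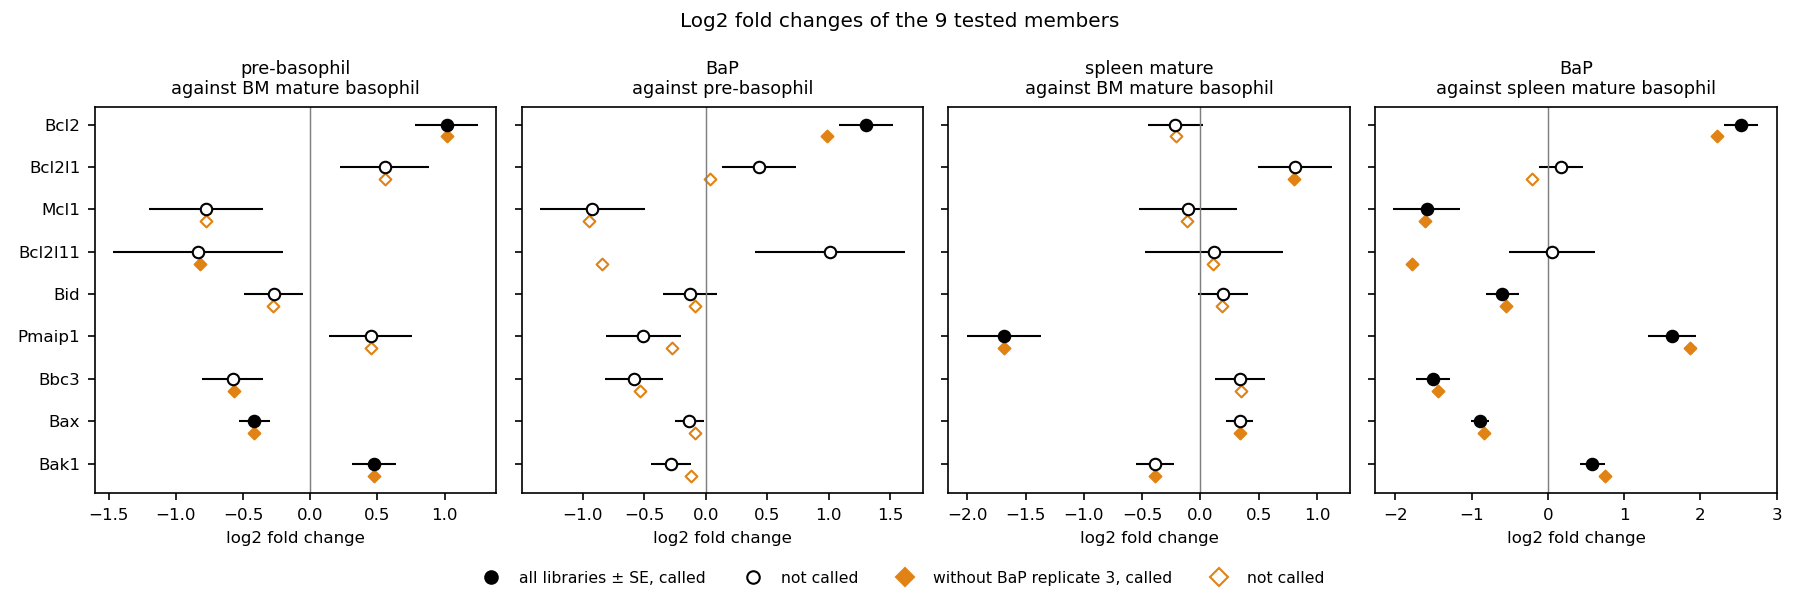
Log2 fold changes (horizontal axes) of the 9 tested members in 4 comparisons, with bars of ± 1 SE. Circles use all 12 libraries and diamonds leave out BaP replicate 3; filled symbols have an adjusted p under 0.05. Bcl2 is filled in 3 comparisons, Pmaip1 at -1.69 is the only filled circle between spleen and BM mature basophils, and Bcl2l11 moves from 0.06 to -1.78 in BaPs against spleen when that library is left out.

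Beyond the members, 58 further genes of apoptosis were followed in 6 lists, of which 49 passed the filter. Of these, 18 (36.7%) separated pre-basophils from BM mature basophils, with 11 higher and 7 lower. BaPs against spleen mature basophils gave 28 (57.1%), 17 higher and 11 lower. BaPs against pre-basophils and spleen against BM mature basophils gave 2 each (4.08%), both with 1 higher and 1 lower. These shares can be read against the backgrounds of 27.3%, 54.5%, 7.08% and 7.83% given above. Without BaP replicate 3, 48 of the genes passed the filter. BaPs against spleen mature basophils then gave 32, 17 higher and 15 lower, against 61.6% of all genes, and BaPs against pre-basophils gave 7, 3 higher and 4 lower, against 12.4%. The comparisons without BaPs changed too. Pre-basophils against BM mature basophils gave 24, 13 higher and 11 lower, against 35.7% of all genes. Spleen against BM mature basophils gave 5, 3 higher and 2 lower, against 18%.

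Of 6 tested genes in the rest of the BCL2 family, 3 were higher in pre-basophils than in BM mature basophils and none lower. Of all genes, 16.3% were higher there and 11% lower. Bik, a BH3-only gene, had 2.91 ± 1.05 CPM at the pre-basophil stage against 0.294 ± 0.319 CPM in BM mature basophils (log2 3.45, edgeR adjusted p = 0.00834), a difference that rests on few reads. Bcl2l2, which encodes the anti-apoptotic BCL-W, was at 6.30 ± 0.0959 and 3.11 ± 0.837 CPM (log2 0.997, edgeR adjusted p = 0.0448). Bmf, a BH3-only gene tied to the cytoskeleton, was higher in spleen mature basophils (12.9 ± 3.41 CPM) than in BaPs (4.92 ± 0.203 CPM; log2 of BaPs minus spleen -1.38, edgeR adjusted p = 0.000932; -1.40 without BaP replicate 3, edgeR adjusted p = 0.00113).

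Downstream of the pore, 3 of 11 apoptosome and caspase genes were higher in pre-basophils than in BM mature basophils and none was lower, where 27.3% of all genes were called (16.3% higher). In BaPs against the spleen, 5 were higher and none lower, where 54.5% of all genes were called (29.8% higher). The shares called thus stood near or under the background, and nothing particular to the list is read from them. Cycs, which encodes cytochrome c and also serves respiration, stepped from 59.4 ± 7.33 CPM (BaPs) to 40.4 ± 4.14 (pre-basophils) and, in mature basophils, 17.98 ± 1.66 (BM) and 17.6 ± 3.59 (spleen), and it passed in BaPs against pre-basophils too (log2 0.56, edgeR adjusted p = 0.0464; 0.63 without BaP replicate 3, edgeR adjusted p = 0.018).

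Inhibitors of apoptosis were split. Of 5 genes, Birc5 (survivin, which also acts in cell division) was 6.09-fold higher in pre-basophils than in BM mature basophils (91.6 ± 7.37 and 15.3 ± 3.82 CPM, edgeR adjusted p = 4.23e-06), and it was lower still in the spleen (6.96 ± 1.11 CPM, edgeR adjusted p = 0.019 against BM mature). Birc3, an inhibitor induced by NF-kB, was lower in pre-basophils (53.3 ± 5.75 CPM) than in BM mature basophils (80.1 ± 7.71 CPM; log2 -0.59, edgeR adjusted p = 0.0213). Xiap, which inhibits caspases directly, was at 75.5 ± 1.72 CPM in BaPs and 57.7 ± 8.51 CPM in the spleen (log2 0.39, edgeR adjusted p = 0.0253; 0.41 without BaP replicate 3, edgeR adjusted p = 0.0191).

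In the death receptor pathway, 2 of 8 genes, 1 each way, separated pre-basophils from BM mature basophils, where 27.3% of all genes were called. Without BaP replicate 3 this count was 4, 2 higher and 2 lower, against 35.7%. Fas (edgeR adjusted p = 0.00188) and Tnfrsf1a (edgeR adjusted p = 0.0139) were then added. BaPs against spleen gave 4, 3 higher and 1 lower, against 54.5% of all genes. Without BaP replicate 3 the latter count was 3, 2 higher and 1 lower, against 61.6%. Tnfrsf1a was then no longer called in BaPs against spleen (edgeR adjusted p = 0.208). Casp8, the initiator caspase that cleaves BID, had 36.1 ± 2.76 CPM at the pre-basophil stage against 27.6 ± 4.04 CPM in BM mature basophils (log2 0.38, edgeR adjusted p = 0.0495). Fadd, its adaptor, was higher in BaPs (14.1 ± 4.65 CPM) than in the spleen (5.81 ± 1.08 CPM; log2 1.25, edgeR adjusted p = 0.00312; 1.52 without BaP replicate 3, edgeR adjusted p = 9.6e-05). The receptor gene Fas stood at 0.476, 0.704 and 4.02 CPM in replicates 1 to 3 of the BaPs, the first of these resting on 2 reads and the second on 3, against 7.30 ± 1.85 CPM in the spleen. It was lower in BaPs by a log2 difference of -1.80 (edgeR adjusted p = 0.00743), which became -3.57 without replicate 3, the library with the T and NK cell and erythroid markers (edgeR adjusted p = 4.45e-06).

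Of 12 tested regulators of the members, 6 separated the pre-basophils from the mature basophils of the BM (2 were higher and 4 lower). Of all genes, 27.3% were called there, 16.3% higher and 11% lower. Without BaP replicate 3 the count was 8, 3 higher and 5 lower, against 35.7% of all genes. Trp53, which encodes p53, fell from 55.5 ± 5.58 CPM at the pre-basophil stage to 31.8 ± 2.398 CPM in BM mature basophils (log2 0.80, edgeR adjusted p = 0.0023). E2f1, a factor of the cell cycle, was 3.74-fold higher in pre-basophils (18.9 ± 7.09 against 5.07 ± 0.649 CPM, edgeR adjusted p = 0.000257). Stat5b, which signals downstream of IL-3, went the other way (63.6 ± 2.50 and 91.1 ± 6.04 CPM; log2 -0.52, edgeR adjusted p = 0.00813).

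Among 7 tested p53 targets outside the family, the direction was mixed. Cdkn1a, the cell cycle inhibitor p21, was higher in pre-basophils than in BM mature basophils (181 ± 29.6 and 75.6 ± 26.2 CPM; log2 1.26, edgeR adjusted p = 0.00358). Sesn2, a stress-induced gene, was lower (7.57 ± 0.694 and 14.4 ± 0.729 CPM; log2 -0.93, edgeR adjusted p = 0.00125). Aen, which encodes a nuclease of apoptosis, was higher in the spleen (12.8 ± 1.86 CPM) than in BM mature basophils (5.29 ± 1.03 CPM; log2 1.30, edgeR adjusted p = 0.00927), the reverse of Pmaip1 in that comparison.

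**Figure D4:**
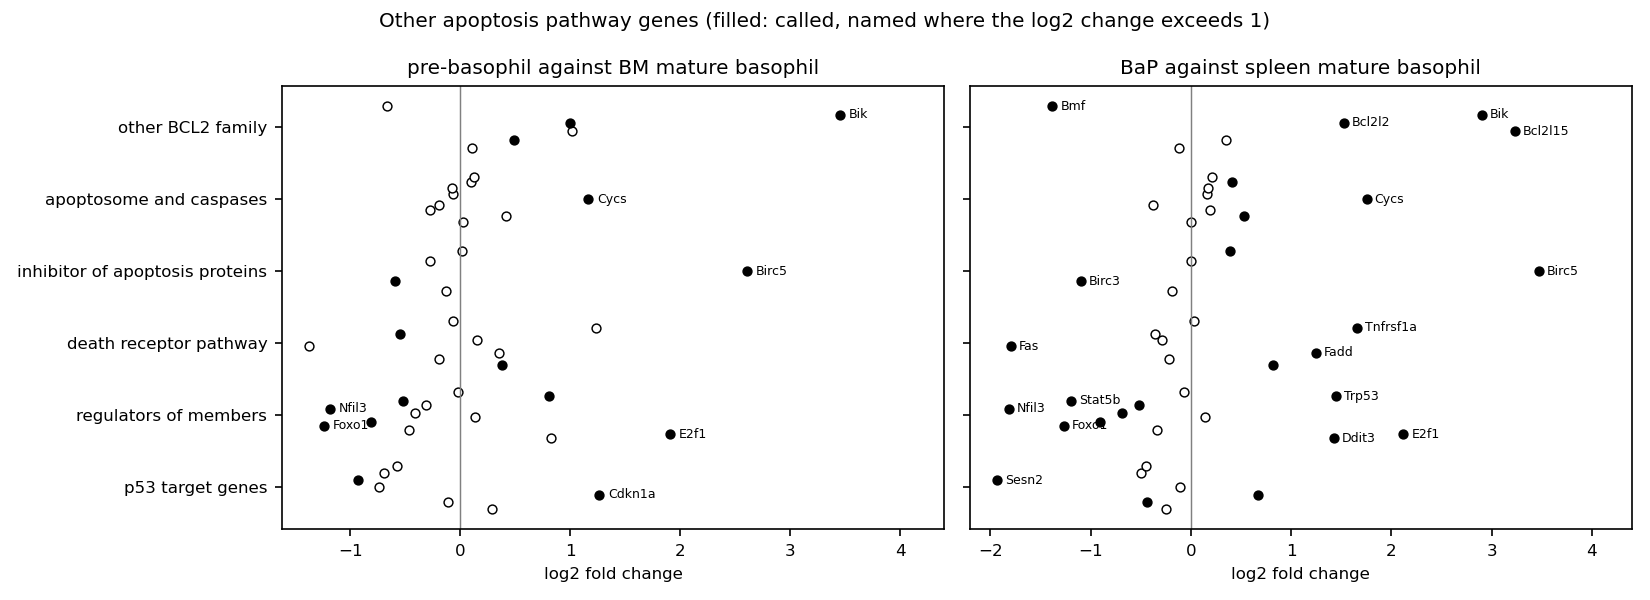
Log2 fold changes (horizontal axes) of tested apoptosis genes outside the members, leaving out the genes not reported here, 1 point a gene, in 6 lists (vertical axis), for pre-basophils against BM mature basophils and BaPs against spleen mature basophils. Filled points have an adjusted p under 0.05 and are named where the change exceeds 1. Filled points lie on both sides of 0 among the regulators and, in the apoptosome and caspase list, to the right of it.

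For the members with the lowest p in the test of all 4 groups, Bcl2 and Bax, the genes of most similar pattern were looked up among 8413 genes with a mean of at least 10 CPM. Over the 12 libraries, which share stages and depth, the log2 CPM of Bcl2 was closest to that of Rpl12 (Pearson's r 0.972), Atp2b4 (0.971) and Mif-ps (0.969). Rpl12 and Mif-ps have near-identical copies in the genome and their counts are uncertain. For Bax the closest were Rxrb (0.979), Dnajb1 (0.978) and Use1 (0.977). Dnajb1, a heat shock gene, was at 473 CPM in BaPs and 2426 CPM in the spleen.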

How the data were processed

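The authors sorted the cells, captured polyadenylated RNA, amplified it by the TAS-Seq workflow and sequenced it. Per the study's methods and processing notes, reads were trimmed with Cutadapt 3.4 and mapped with Bowtie2 2.4.2 to reference RNA. The methods name GRCm38, the processing notes GRCm39. Coordinates here are those of GENCODE and RefSeq on GRCm38. The deposited values are raw read counts per gene, without normalization. Use of strand, treatment of reads matching several genes and molecular identifiers are not given in the sources used here, so PCR copies may count as reads and counting error is a lower limit.

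Counts were filtered with filterByExpr (minimum count 10) and scaled by TMM, and edgeR 4.0.16 (R 4.3.3) gave quasi-likelihood fits over the 12 libraries together. Adjusted p-values (Benjamini-Hochberg over 15083 genes) under 0.05 were called. CPM used TMM-scaled totals (factors 0.844 to 1.30), with a prior count of 2 on the log2 scale. The study used the package TCC, whose repeated scaling (DEGES) was rebuilt as an alternative. Other alternatives were upper-quartile and median-ratio scaling, library size alone, DESeq2 1.42.0, limma-voom (limma 3.58.1), no filter beyond 1 count, only the libraries compared, summed Bcl2a1 copies, each library left out, and a replicate block. Scripts were tested on simulated data. Replicates always differed by more than sampling noise (chi-square per degree of freedom 4.16 to 35.0).

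The replicate numbers come from the sample titles. After removal of group means, same-numbered libraries of the bone marrow correlated by over 0.1 in all 9 pairs, those with spleen in none of 9, and different-numbered libraries by -0.206 to 0.076. The numbers were therefore taken to pair the bone marrow groups, and blocked values are given where they changed a call. No label says what the number marks. Replicate 3 also had the highest total in every group, and the part of depth in these correlations was not tested.

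All 10 members are named. From each apoptosis list, up to 3 genes with the lowest p in the test of all 4 groups were named, and for the 2 members with the lowest p, the 3 genes of highest correlation. Some genes of the apoptosis lists are not reported here by name. The members and lists were chosen with earlier results of these data known. Promoter windows of 250 bases were found in RefSeq for 9 members, 14 windows in all. Motifs were searched on both strands: GC box GGGCGG, in 10 of the 14 windows, ETS core CCGGAA in 3, E-box CACGTG in 2, FOXO GTAAACA in 2, the 10-base unit of the p53 response element (a full element holds a pair) in 1, AP-1 TGANTCA in 1 (6.75% of all windows) and STAT TTCNNNGAA in 0 (7.02%).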

Additional observations from a re-analysis of the deposited data

How the results depend on the processing

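The members called between BaPs and spleen mature basophils numbered 6 to 8 under every alternative, and their calls for Bcl2, Mcl1, Pmaip1, Bbc3, Bax and Bak1 held in all of them. Calls that rested on single libraries or on scaling were those of Bax and Bak1 between pre-basophils and BM mature basophils, of Bid, and of Pmaip1 between spleen and BM mature basophils. The cause of each change was not tested. The share of all genes called also changes with the setting. In this section it is given only for the fit without BaP replicate 3, so changes in the other counts are not read as a result about the members. Without the filter, 10 members differed across the 4 groups, 5 between BaPs and pre-basophils and 6 between the latter and BM mature basophils. Between BaPs and pre-basophils, the added Bcl2a1b had 43 reads in BaP replicate 3. The added Bcl2l11 (log2 1.02) was at -0.84 in the filtered fit without that library. Mcl1 kept its log2 difference (-0.92 with and -0.93 without the filter), while its edgeR adjusted p went from 0.214 to 1.73e-08. With the replicate block, in the fit of all libraries as in one of the bone marrow libraries alone (chosen after seeing the data), 5 differed between pre-basophils and BM mature basophils, by Mcl1 and Bbc3. The block also added Bid across the 4 groups (7 members) and changed no other call. With library size alone, 2 differed between spleen and BM mature basophils, by Bax. Leaving out 1 library gave 1 to 5 members for pre-basophils compared with BM mature basophils, 1 when BM mature replicate 3 or either of pre-basophil replicates 1 and 2 was dropped and 5 without BaP replicate 3. It gave 0 to 4 in spleen against BM mature basophils, with 0 without BM mature replicate 1 and 4 without BaP replicate 3, and 6 to 7 across the 4 groups, where Mcl1 was lost without BaP replicate 2 (adjusted p = 0.0536, edgeR).

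Scaling by library size alone moved the median log2 difference of all genes to 0.22 in pre-basophils against BM mature, 0.23 in BaPs against pre-basophils, 0.14 in spleen against BM mature and 0.33 in BaPs against spleen. Relative to these shifts, the directions that turned under it were those of uncalled differences: Bid (0.075) and Bax (0.066) in BaPs against pre-basophils and Mcl1 (0.039) in spleen against BM mature basophils. Mcl1 in that comparison also turned with limma-voom (0.041) and the replicate block (0.023) and lay between -0.412 and 0.568 with 1 library left out. Leaving out 1 library likewise turned Bcl2l11 and Bid in spleen against BM mature (ranges -0.016 to 0.258 and -0.011 to 0.39), Bcl2l1 in BaPs against spleen (-0.209 to 0.528) and Bcl2l11 in BaPs against pre-basophils (-0.842 to 1.414). Bcl2l11 in BaPs against spleen turned with DESeq2 (-0.071), limma-voom (-0.31), the replicate block (-0.33) and without 1 library (-1.78 to 0.48). The 3 libraries a group and 16 to 150 reads of Bcl2l1 limit what could be detected.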
